A study of Mus musculus with 6 samples.

Results

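Aminoacyl-tRNA synthetases and their scaffold proteins were followed in the epididymal white fat of mice whose adipocytes lack CNOT3, a subunit of the CCR4-NOT complex, which shortens the poly(A) tails of mRNAs. Genes were taken from the probe annotation by symbol: the synthetase names, with or without a number, Eprs, Farsa and Farsb, and the scaffold genes Aimp1, Aimp2 and Eef1e1. This gave 38 of 18193 annotated genes, made up of 19 cytosolic synthetases, 16 mitochondrial synthetases and 3 scaffold genes. Where several probe sets measure a gene, the brightest on average over the 6 arrays was used.

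The mice were of the C57BL/6 strain and 8 weeks old, and 1 Affymetrix array was hybridised per mouse. The 3 WT mice are labelled wild type, and nothing in the labels says whether they carried the Cre transgene or a floxed allele. The 3 CNOT3KO mice carried a Cnot3 deletion made by Cre recombinase under the Adiponectin promoter, so the other cells of the fat pad keep the gene. RNA came from the whole tissue. A higher signal can therefore come from more mRNA per cell or from more cells that express the gene, and these cannot be told apart here. Cnot3 read 305, 293 and 305 in the WT mice and 194, 229 and 179 in the CNOT3KO mice (log2 difference -0.54, SE 0.14, limma adjusted p = 0.0131), with no overlap between the groups.

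Each aminoacyl-tRNA synthetase joins 1 amino acid to its tRNAs, the step that sets the genetic code, and Eprs is a fusion that does so for glutamate and proline. Animal cells carry separate nuclear genes for most cytosolic and mitochondrial enzymes, while Gars (glycine) and Kars (lysine) each serve both compartments and are counted here with the cytosolic group. Several cytosolic enzymes are bound into the multisynthetase complex by AIMP1, AIMP2 and EEF1E1. Many cytosolic synthetase genes are known targets of ATF4, the transcription factor of the amino acid and integrated stress responses.

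The synthetase genes were higher in the knockout fat as a broad group. Of the 38 genes, all of which passed the filter on dim signals, 28 were higher in CNOT3KO, 0 were lower and 10 did not pass (limma, two-sided, Benjamini-Hochberg adjusted p under 0.05 over all genes). Over all 12769 tested genes, 40.1% were called, 23.2% higher and 16.9% lower. The fitted difference was above 0 for all 38, against 52.0% of all tested genes. The median log2 difference was 0.47 for the 38 genes and 0.02 for all tested genes. In 29 genes every CNOT3KO mouse read above every WT mouse, against 29.0% of all tested genes (51.7% did not overlap in either direction). The fitted fold exceeded 1.5 in 12 genes, among them Mars2, which did not pass. It exceeded 2 in 3 genes, among them Aars2, which passed the filter on dim signals through the CNOT3KO arrays. All log2 and fold values here are on the scale of log2(signal + 22.5).

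The number of calls varied with the scaling of the arrays and fell when a mouse was left out. When arrays were instead aligned on their median tested gene, which lowers the median difference of all genes by 0.097 and turns the split of all calls from 2959 higher and 2156 lower to 2318 and 2800, 37 of 38 differences stayed above 0, Farsb being the exception at -0.03, and 19 genes were called higher; Aimp2, Cars2, Eprs, Pars2, Qars, Rars2, Tars, Yars and Yars2 were not. Centring on ribosomal protein genes left 38 above 0 and 23 called, without Aimp2, Rars2, Tars, Yars and Yars2. Quantile normalization ended the calls of Rars2, Tars and Yars, a fit without the mean-variance trend those of Aimp2, Eprs, Qars, Rars2, Tars and Yars, and a fit with no filter those of Rars2 and Yars2. Leaving out CNOT3KO mouse 1 left 18 of the 28 calls, while leaving out any other mouse left between 21 and 23 calls. Of the 28 calls, 17 held whichever mouse was left out. Fits with a mouse left out have fewer arrays, and over all genes their calls fell from 5115 to between 3820 and 4636. Among the 6961 tested genes with a mean signal of at least 500, 26.3% were called higher, and 23 of the 28 synthetase and scaffold genes at that level were. The WT means of Aars2 and Mars2 lay below the filter value of 51.6, so these genes passed it through the CNOT3KO arrays. Without them 27 of 36 genes were higher and the median was again 0.47.

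**Figure D1:**
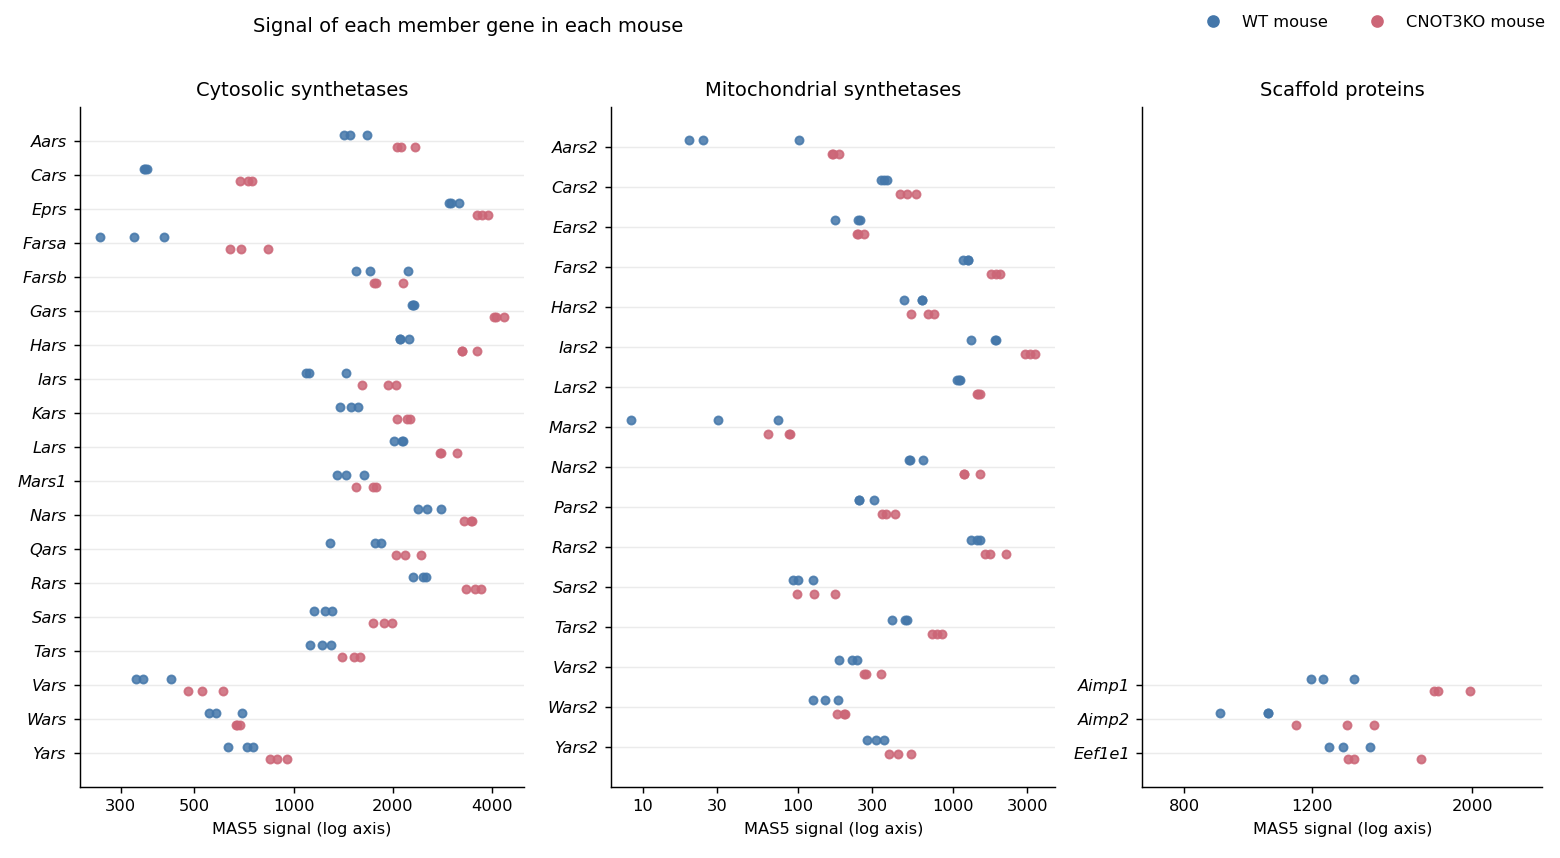
MAS5 signal (log axis) of each synthetase and scaffold gene in each of the 3 WT mice (blue, upper row of a gene) and 3 CNOT3KO mice (red, lower row), with Gars and Kars among the cytosolic genes. In 29 of 38 genes the red points lie entirely to the right of the blue ones; distances between genes carry no meaning, since probe sets differ in brightness.

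The promoter windows of the cytosolic genes were searched for the C/EBP-ATF response element TGATGNAA, the site through which ATF4 is known to act on amino acid response genes, on both strands. RefSeq promoter sequences (GRCm38.p6, 250 bases before to 50 after the annotated start) were found for 29 of the 38 genes. The element was present in 5 of 12 cytosolic genes with a sequence, in 0 of 14 mitochondrial genes and in 0 of 3 scaffold genes. It was present in 4.51% of all 27025 genes of the table. A match describes the sequence and does not show that a factor binds there. The match nearest the start is shown for each of these 5 genes, Aars, Gars, Iars, Tars and Yars. All 5 were called higher, as were 16 of all 19 cytosolic genes. Eprs, Farsa, Kars, Qars and Sars had no element in the window and were also called higher. Windows run 5′ to 3′ on the strand of the gene, with the element in capitals. It reads TTNCATCA where it lies on the opposite strand.
Aars, chr8:111033840-111033869, plus strand, element from position 10: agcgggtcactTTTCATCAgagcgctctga
Gars, chr6:55037960-55037989, plus strand, element from position -30: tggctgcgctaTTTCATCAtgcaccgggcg
Iars, chr13:49682126-49682155, plus strand, element from position 8: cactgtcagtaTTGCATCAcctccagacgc
Tars, chr15:11399655-11399684, minus strand, element from position -15: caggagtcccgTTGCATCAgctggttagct
Yars, chr4:129189895-129189924, plus strand, element from position 4: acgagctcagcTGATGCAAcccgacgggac
Positions count from the annotated start of the gene, negative before it. The differences of these 5 genes ran from 0.31 for Tars to 0.85 for Gars. Genes without the element in this window lay both below and above them, such as Eprs at 0.29 and Farsa at 1.09.

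Among the cytosolic synthetases 16 of 19 were higher, 0 were lower and 3 did not pass, with a median log2 difference of 0.50. The largest differences were in Farsa, Cars and Gars. Cars, for cysteine, read 360, 352 and 356 in WT and 728, 690 and 750 in CNOT3KO mice, a rise of 1.97-fold (log2 0.98, SE 0.11, limma adjusted p = 0.000158). The WT mice were nearly identical (SD 4.21, n = 3), and every knockout mouse lay far above them. Gars, the glycine enzyme of both compartments, read 2322, 2308 and 2280 in WT and 4115, 4333 and 4058 in CNOT3KO, a rise of 1.80-fold (log2 0.85, SE 0.09, limma adjusted p = 0.000121). Its groups were far apart and each was tight, with SDs of 21.5 and 145 (n = 3 each).

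Hars, for histidine, read 2230, 2096 and 2105 in WT and 3244, 3601 and 3239 in CNOT3KO (log2 0.64, SE 0.10, limma adjusted p = 0.00078), and its other probe set was called as well (0.63). Iars, for isoleucine, read 1440, 1093 and 1118 against 2037, 1936 and 1608 (log2 0.61, SE 0.14, limma adjusted p = 0.00734). Neither gene had overlapping groups, although WT mouse 1 of Iars came near the lowest knockout mouse. Sars (serine), Kars (lysine), Rars (arginine), Vars (valine) and Aars (alanine) followed with differences of 0.59, 0.55, 0.53, 0.52 and 0.50. Lars (leucine, also known as a leucine sensor for mTORC1), Qars (glutamine), Nars (asparagine), Yars (tyrosine), Tars (threonine) and Eprs had differences of 0.46, 0.45, 0.40, 0.35, 0.31 and 0.29. Their limma adjusted p-values ran from 0.00467 for Lars to 0.0436 for Tars.

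The weaker of these calls were lost in some fits with a mouse left out. Such fits have fewer arrays and less power, so a lost call need not mean a changed difference. Eprs kept its call in 1 of the 6 fits with a mouse left out (CNOT3KO mouse 3; log2 0.27 to 0.32 over the 6). Yars also kept it in 1 (WT mouse 3; 0.28 to 0.40). Tars lost it without WT mouse 1 (0.31) or 2 (0.25), or without CNOT3KO mouse 1 (0.30) or 3 (0.27). Qars lost it without WT mouse 1 (0.30), or without CNOT3KO mouse 1 (0.47) or 2 (0.39). Vars lost it without WT mouse 1 (0.45), or without CNOT3KO mouse 1 (0.53) or 2 (0.43), and Nars without WT mouse 2 (0.35), or without CNOT3KO mouse 1 (0.39). The probe sets of Qars disagreed: of the bright ones, 1 more was called (0.44) and 1 was not (-0.58), where the WT mice spread widely (2014 ± 1037, SD, n = 3), and the mean over its 4 probe sets gave -0.07. Eprs did not pass with the mean of its probe sets either. The other 10 called cytosolic genes kept their calls in every such fit, and no difference of a called cytosolic gene changed sign there.

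The 3 cytosolic genes that did not pass were Mars1, Wars and Farsb. Mars1, for methionine, read 1630, 1440 and 1358 in WT and 1773, 1546 and 1736 in CNOT3KO (log2 0.19, 95% interval -0.06 to 0.44). Wars, for tryptophan, is known as a gene induced by interferon gamma. It read 701, 556 and 581 in WT and 675, 689 and 669 in CNOT3KO (log2 0.15, 95% interval -0.12 to 0.42), so that WT mouse 1 lay above all knockout mice. All 4 of its probe sets gave differences between 0.15 and 0.26, and none was called. Of 13 tested interferon gamma response genes, 6 rose and 2 fell (median 0.53), against 23.2% higher and 16.9% lower over all tested genes. Psmb8, of the immunoproteasome, rose 2.22-fold and Tap1, the peptide transporter, 1.72-fold, whereas the chemokine gene Cxcl9 fell to 0.266 of WT. Tap1 did not pass with the mean of its probe sets. The other rises were Gbp3, Cxcl10, Igtp and Psmb9 and the other fall was Gbp7; of these 5, all but Psmb9 lost their call in at least 1 fit with a mouse left out. Gbp3 (log2 0.57) did so without WT mouse 2 (0.58) or 3 (0.40), or without CNOT3KO mouse 1 (0.42) or 2 (0.53), and Igtp (0.53) without WT mouse 2 (0.44) or 3 (0.51), or without CNOT3KO mouse 1 (0.44) or 3 (0.45). Cxcl10 (0.75) did so without WT mouse 2 (0.53), or without CNOT3KO mouse 1 (0.63) or 3 (0.68), and Gbp7 (-0.49) without WT mouse 1 (-0.36) or 2 (-0.52), or without CNOT3KO mouse 2 (-0.43) or 3 (-0.39).

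Farsa and Farsb encode the alpha and beta subunits of the same phenylalanine enzyme, and they differed in response. Farsa read 259, 404 and 329 in WT and 641, 693 and 839 in CNOT3KO mice, a rise of 2.13-fold (log2 1.09, SE 0.17, limma adjusted p = 0.000983). Farsb read 2214, 1700 and 1548 against 1759, 2139 and 1782 (log2 0.07, 95% interval -0.26 to 0.39). The log2 ratio of Farsa to Farsb was 1.02 higher in CNOT3KO than in WT, with no overlap between the mice of the groups. This pair was singled out after its values were seen, and the difference was not tested. The probe sets of Farsa disagreed: a dim one read 96.2 ± 3.88 in WT and 14.7 ± 1.67 in CNOT3KO (SD, n = 3 each) and was called lower (log2 -1.67), and the mean over all 4 probe sets gave -0.37. The probe set used is the brightest by far, at 528 on average against at most 65.9 for the others. Farsb gave -0.08 when probe sets marked as open to cross-hybridisation were avoided.

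Mitochondrial synthetases were higher in 10 of 16 cases, lower in 0, and 6 did not pass, with a median log2 difference of 0.47. Their median signal was 410, against 1830 for the cytosolic genes, and their median SE was 0.15 against 0.11. Counts of calls therefore do not compare the compartments at equal precision. Aars2, Nars2 and Iars2 had the largest differences among the genes called. Nars2, for asparagine, read 638, 518 and 524 in WT and 1182, 1170 and 1490 in CNOT3KO, a rise of 2.23-fold (log2 1.16, SE 0.14, limma adjusted p = 0.000204). Iars2, for isoleucine, read 1882, 1853 and 1296 against 3386, 3137 and 2913 (log2 0.92, SE 0.15, limma adjusted p = 0.00118). In both genes every knockout mouse read well above the highest WT mouse, and WT mouse 3 was the lowest for Iars2. A second, dimmer Iars2 probe set gave 0.15 and was not called.

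Tars2, for threonine, read 401, 493 and 502 in WT and 735, 853 and 787 in CNOT3KO (log2 0.74, SE 0.13, limma adjusted p = 0.00159). Fars2, the phenylalanine enzyme of mitochondria, which is a single chain, read 1244, 1152 and 1252 against 1887, 1752 and 2005 (log2 0.62, SE 0.10, limma adjusted p = 0.00128). A second probe set of each was called higher too, at 0.71 and 0.78. Pars2 (proline), Yars2 (tyrosine), Cars2 (cysteine), Lars2 (leucine) and Rars2 (arginine) had differences of 0.48, 0.47, 0.47, 0.41 and 0.38. Of these, Lars2 kept its call whichever mouse was left out but not with the mean of its probe sets (0.26), and Cars2 lost its call there too (0.20). Cars2 lost it without CNOT3KO mouse 3 (0.39), Pars2 without WT mouse 1 (0.43) or 3 (0.43), or without CNOT3KO mouse 1 (0.40) or 2 (0.50), and Yars2 without WT mouse 2 (0.39) or 3 (0.48), or without CNOT3KO mouse 1 (0.49) or 3 (0.35). Rars2 kept it only without CNOT3KO mouse 2 (0.47), with 0.25 to 0.42 in the other 5 fits, and did not pass with the mean of probe sets, where its own difference is the same.

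Aars2, for alanine, was higher (log2 1.64, SE 0.36, limma adjusted p = 0.00615) but is dim in WT. With an offset of 88.5 its difference was 0.98, below that of Nars2 (1.07). It read 101, 19.7 and 24.3 in WT and 168, 184 and 167 in CNOT3KO. The groups did not overlap, and the knockout mice agree closely while WT mouse 1 stands above the other WT mice. Over the alternatives that tested it, its difference ran from 0.98 to 2.20 and it was called in each. The filter at the 60th percentile left it out. Its WT mean lay below the filter value of 51.6, so it entered these fits through the CNOT3KO arrays, and the repeated calls add no separate support. Mars2, for methionine, read 8.38, 73.7 and 30.3 against 89.0, 87.7 and 64.0 (log2 0.92, SE 0.38, limma adjusted p = 0.0794), with overlapping groups, and was called only without WT mouse 2 (1.34).

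The other mitochondrial genes that did not pass were Vars2 (valine), Wars2 (tryptophan), Sars2 (serine), Ears2 (glutamate) and Hars2 (histidine). Their log2 differences were 0.42, 0.32, 0.25, 0.17 and 0.17, with 95% intervals that reach up to between 0.53 and 0.77. Vars2 read 222, 239 and 184 in WT and 343, 267 and 274 in CNOT3KO, so its groups did not overlap although its limma adjusted p was 0.0615. It was called higher with quantile normalization (0.47) and with array weights (0.52); array weights also called Wars2 (0.40) and the cytosolic Mars1 (0.25). Hars2 lies beside Hars in the genome and was read by a pair of probe sets that disagreed. The brighter gave 0.17, and the other read 248 ± 59.6 in WT and 158 ± 28.9 in CNOT3KO (SD, n = 3 each) and was called lower (log2 -0.58).

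**Figure D2:**
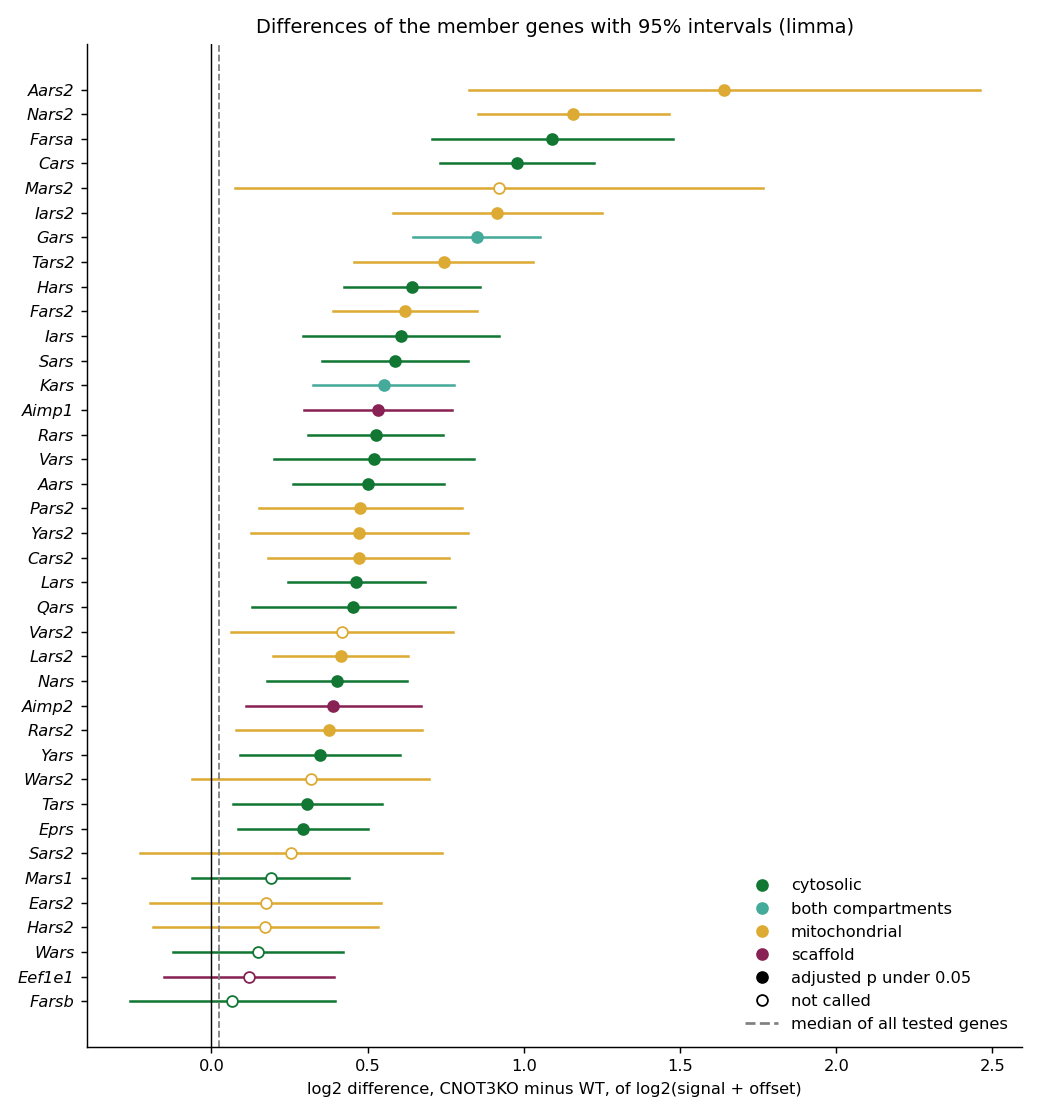
Log2 difference, CNOT3KO minus WT, of each synthetase and scaffold gene (points) with its 95% interval from limma (lines), coloured by compartment; filled points passed an adjusted p of 0.05. All 38 points lie to the right of 0 and 37 of them at or above 0.12, while the median of all tested genes (dashed) is 0.02.

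The scaffold genes went partly with the enzymes they hold. Aimp1, which is also the precursor of a secreted cytokine, read 1195, 1242 and 1373 in WT and 1791, 1770 and 1983 in CNOT3KO (log2 0.53, SE 0.11, limma adjusted p = 0.00338). Aimp2 read 1045, 1044 and 896 against 1342, 1140 and 1464 (log2 0.39, SE 0.13, limma adjusted p = 0.0326). Neither overlapped, but Aimp2 lost its call without WT mouse 2 (0.43) or 3 (0.32), or without CNOT3KO mouse 1 (0.37) or 3 (0.31). Eef1e1 read 1326, 1269 and 1443 against 1371, 1344 and 1699 (log2 0.12, 95% interval -0.15 to 0.39), with overlapping groups. Of the 7 synthetases of the complex measured here, namely Eprs, Iars, Kars, Lars, Mars1, Qars and Rars, 6 were higher with a median of 0.46. Of the 12 cytosolic synthetases outside it, 10 were higher with a median of 0.51.

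By catalytic class, the fold of the active site that divides the enzymes into classes I and II, the counts were as follows. Among cytosolic genes 7 of 9 of class I and 8 of 9 of class II were higher, with medians of 0.46 and 0.55. Among mitochondrial genes these were 5 of 9 and 5 of 7, with medians of 0.42 and 0.62. Eprs, which holds a domain of each class, was left out of this count. Farsa and Farsb, subunits of the same enzyme, each enter it under class II. No test was made between the classes.

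The comparison of compartments asked whether the genes for one amino acid moved alike in cytosol and mitochondria. As group means over genes, relative to the WT mean, the cytosolic genes stood at 0.48, 0.52 and 0.51 log2 units in CNOT3KO mice 1 to 3 and the mitochondrial genes at 0.60, 0.52 and 0.67. The cytosolic minus mitochondrial difference was -0.10 on average. Per mouse this difference was 0.01, -0.03 and 0.02 in WT and -0.13, -0.00041 and -0.16 in CNOT3KO, so the groups overlapped. It varied with the handling of dim signals: with an offset of 1 it was -0.18, with an offset of 88.5 it was -0.0067, and without genes below the 60th percentile of signal it was -0.016. It was -0.14 without CNOT3KO mouse 2 and -0.064 without CNOT3KO mouse 3.

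For 17 pairs of a cytosolic and a mitochondrial gene with the same amino acid, the log2 ratio within each mouse was compared between the groups. The cytosolic gene had the larger difference in 8 pairs and the mitochondrial gene in 9. In 4 pairs the ratios of the mice did not overlap: Cars over Cars2 was 0.51 higher in CNOT3KO (SE 0.09), while Nars over Nars2 was 0.76 lower (difference -0.76, SE 0.16), Farsb over Fars2 was lower (-0.55, SE 0.21) and Tars over Tars2 was lower (-0.44, SE 0.15). With 3 mice per group the smallest p that an exact two-sided permutation test can give is 0.1, which these 4 pairs reached. Adjusted over the 17 pairs it was 0.378 (Benjamini-Hochberg). At this number of mice no pair could reach 0.05, so the test does not separate the pairs. Among single tested genes 51.7% did not overlap in either direction, and the share for ratios of other genes was not computed. A lack of overlap alone therefore does not mark out a pair. A second bright Nars probe set was called higher with a log2 difference of 0.72, against 0.40 for the one used and 1.16 for Nars2. The pairs share genes in some cases, since Eprs enters with Ears2 and with Pars2, and Fars2 with both Farsa and Farsb. Without WT mouse 1, WT mouse 2, or without CNOT3KO mouse 3 the number of pairs that did not overlap was 8, 9 and 8, with fewer mice to overlap.

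**Figure D3:**
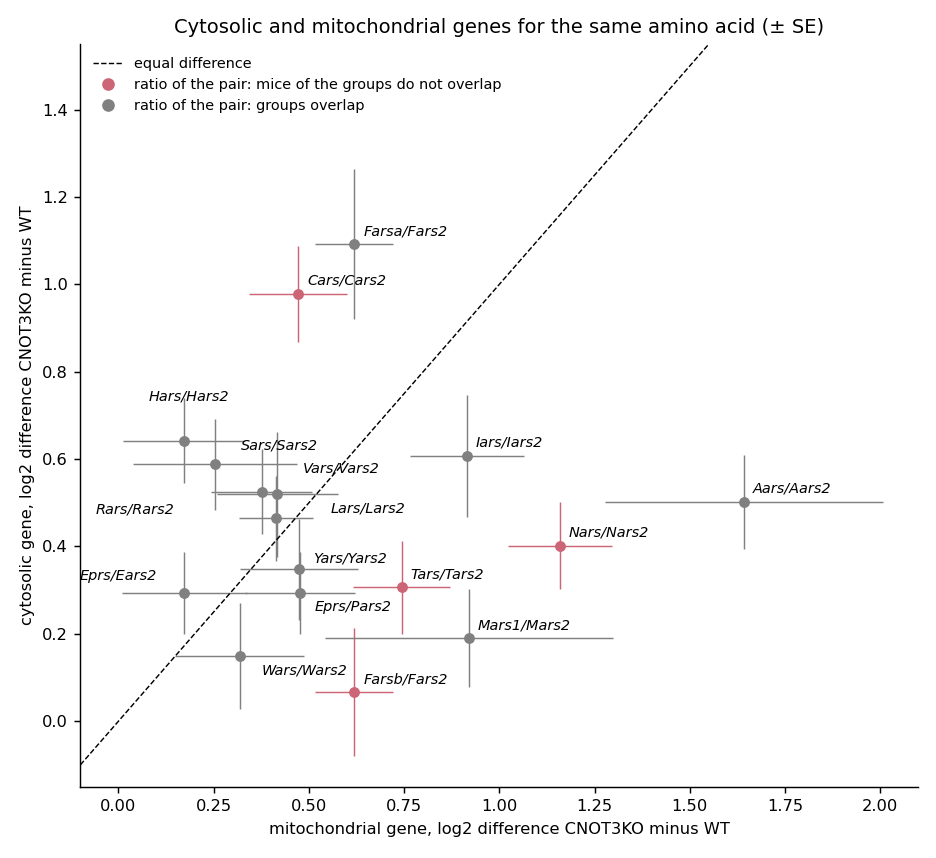
Log2 difference (CNOT3KO minus WT) of the cytosolic gene against that of the mitochondrial gene for the same amino acid in 17 pairs, with bars of 1 SE from limma and a dashed line of equal difference. Points scatter on both sides of the line; the 4 pairs in red, Cars/Cars2 above it and Nars/Nars2, Farsb/Fars2 and Tars/Tars2 below it, had ratios that did not overlap between the mice of the groups.

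Other genes of tRNA charging and translation were counted in the same fit. It called 23.2% of all tested genes higher and 16.9% lower, the shares to hold beside each list count below. Of 11 tested accessory and editing genes, Tarsl2, Pstk and Aarsd1 rose and Sephs2 fell (median 0.10). Tarsl2, a threonine enzyme related to Tars, was not counted among the synthetases because its symbol falls outside the selection. It rose 1.70-fold and was no longer called without CNOT3KO mouse 1 (log2 0.72) or 3 (0.72). Pstk, the kinase that acts on seryl-tRNA in selenocysteine synthesis, rose 1.47-fold, and Sephs2, which makes the selenium donor of the same pathway, fell to 0.675 of WT. Pstk did not pass with the mean of its probe sets. Aarsd1, an editing factor for alanyl-tRNA, rose 1.34-fold and did not pass with median centring or without WT mouse 2 (log2 0.39).

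Of 11 tested genes for the use of tRNAs in mitochondria, Mtif3, Gfm2, Gfm1 and Mtif2 rose and none fell (median 0.24). Mtif3, an initiation factor, rose 1.65-fold, and the elongation and recycling factors Gfm1 and Gfm2 1.41-fold and 1.61-fold. Gfm1 lost its call when cross-hybridising probe sets were avoided. Among 8 cytosolic elongation factor genes there were no rises and 1 fall, of Eef2k, the kinase that inhibits elongation factor 2, to 0.657 of WT. Eef2k did not pass without WT mouse 2 (-0.48) or 3 (-0.50), or without CNOT3KO mouse 3 (-0.48). Of 30 initiation factor genes 9 rose and 3 fell (median 0.19), with Eif2b4, Eif6 and Eif2b2 up by log2 differences of 1.24, 0.77 and 0.58 (Eif2b4 and Eif2b2 are subunits of the exchange factor for eIF2). The falls were in Eif5, Eif2s3x and Eif1b, of which Eif2s3x did not pass with the mean of its probe sets and Eif1b did not pass with ribosomal protein centring or without WT mouse 2 (-0.34) or 3 (-0.34), or without CNOT3KO mouse 1 (-0.31).

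The genes of the integrated stress response, which can raise synthetase mRNAs through ATF4, were called in both directions. So were all tested genes, 23.2% higher and 16.9% lower. Atf4 read 3227, 3619 and 4797 in WT and 2655, 2820 and 2773 in CNOT3KO (log2 -0.47, SE 0.14, limma adjusted p = 0.024), with no overlap. The call was lost without WT mouse 2 (-0.51) or 3 (-0.31), or without CNOT3KO mouse 1 (-0.45). Among 10 tested genes of the eIF2 kinases and their control, 1 rose and 3 fell. The rise was in Eif2ak4, the kinase GCN2 that senses uncharged tRNA, from 235, 282 and 248 in WT to 478, 416 and 462 in CNOT3KO (1.71-fold, limma adjusted p = 0.00146). The falls were in Atf4, Ppp1r15b and Dnajc3. Ppp1r15b and Dnajc3 did not pass with the mean of probe sets, and Dnajc3 did not pass with ribosomal protein centring or when mouse 1 of either group was left out (-0.29 for WT, -0.30 for CNOT3KO).

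Of 26 tested ATF4 target genes other than the synthetases, 6 rose and 8 fell (median 0.14). The shares over all tested genes were 23.2% higher and 16.9% lower, and the counts of this list were not tested against them. Asns, asparagine synthetase, read 3761, 3127 and 4087 in WT and 2235, 2077 and 3087 in CNOT3KO (log2 -0.58, SE 0.16, limma adjusted p = 0.0177). All 3 knockout mice lay below the WT mice, but the call was lost without WT mouse 1 (-0.55) or 3 (-0.49), or without CNOT3KO mouse 1 (-0.52) or 2 (-0.47). Ddit3, the transcription factor CHOP, fell to 0.698, Atf5, a related factor, to 0.512 and Phgdh, the first enzyme of serine synthesis, to 0.194 of WT, while Atf3 rose 4.86-fold. Of these, Ddit3 did not pass with the mean of its probe sets. Trib3, a pseudokinase, read 300, 205 and 200 against 268, 294 and 202 and did not pass. Among the other rises were Chac1, a glutathione-degrading enzyme, at 1.91-fold, Psat1, of serine synthesis, at a log2 difference of 0.59, and Aldh18a1, of proline synthesis, at 1.74-fold, the last not passing with the mean of its probe sets.

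**Figure D4:**
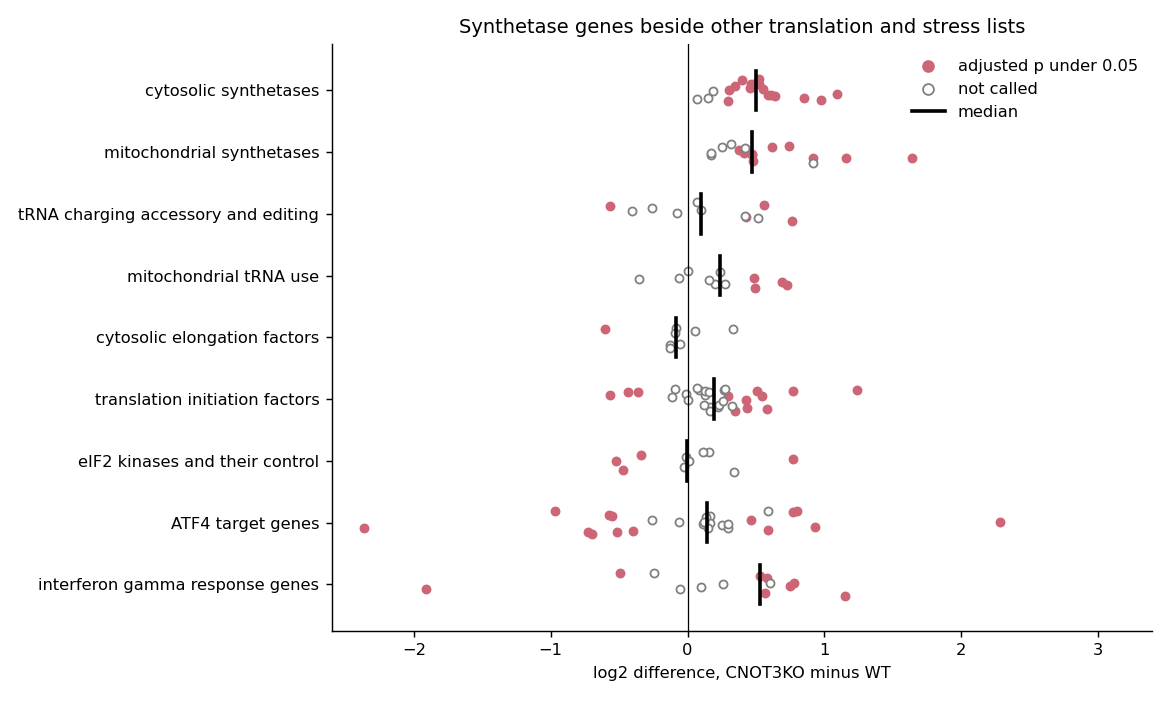
Log2 differences (CNOT3KO minus WT) of the cytosolic and mitochondrial synthetases and of the tested genes of 7 other lists; each point is a gene, red where it passed an adjusted p of 0.05, and black bars are medians, with vertical scatter only to separate points. Both synthetase rows lie wholly above 0 with medians of 0.50 and 0.47, while each of the 7 other lists spreads to both sides of 0.

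Marker genes of several cell types differed between the groups in the same arrays, where 23.2% of all tested genes were called higher and 16.9% lower. Adipocyte markers were abundant in all mice, with a summed signal of 184580 to 230016 in WT and 163923 to 196565 in CNOT3KO; of 12 tested, Lep, Plin4, Cidec and Acvr1c fell and none rose. Of 17 macrophage markers 14 rose and Mertk fell, which did not pass without WT mouse 2 (-0.30) or 3 (-0.45), or without CNOT3KO mouse 1 (-0.45) or 3 (-0.29). Their summed signal was 29754 to 34693 in WT and 58061 to 89079 in CNOT3KO. Of 18 cell cycle genes 16 rose and none fell, with sums of 6126 to 7163 and 13458 to 15375, and of 14 endothelial markers 13 fell, with sums of 22720 to 23251 and 8447 to 9702. T and NK cell markers summed to 1170 to 1370 and 2137 to 2846. Of the 8 tested, Il7r and Klrd1 rose and 6 did not pass (median log2 difference 0.10), and Il7r, with means of 183 and 1361, makes up most of the change of the sum. Fibroblast and progenitor markers summed to 45367 to 55670 and 58977 to 68558 (median 0.38) and B cell markers to 282 to 680 and 298 to 350 (median -0.69). Of 9 tested fibroblast and progenitor markers 4 rose and 1 fell, and of 4 B cell markers 2 fell and none rose. Smooth muscle and pericyte markers summed to 14308 to 20710 and 9485 to 12177 (median -0.53), and mesothelial markers to 4978 to 6192 and 3044 to 4370 (median -0.56). Of 8 tested smooth muscle and pericyte markers 2 rose and 4 fell, and of 8 mesothelial markers 4 fell and none rose. No signal in these arrays is 0. The part of these shifts in the synthetase differences was not tested.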

How the data were processed

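Total RNA (500 ng per mouse, per the labels) from epididymal fat was hybridised to 1 array per mouse. The values deposited by the authors are intensities on a linear scale, 1 per probe set. The submitters' processing notes name MAS5; no source used here gives its version, settings or scaling target. Their trimmed means (highest and lowest 2% left out) differ by at most 0.0701% between arrays, so the arrays had been scaled alike, and array medians are 82.1 to 92.9. MAS5 subtracts mismatch probes, which makes dim values noisy on a log scale. Precision is limited by the number of arrays.

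Of 45037 probe sets, 34945 named 1 gene, 932 several and 9160 none in the platform annotation; each gene was read by its brightest probe set. The 12769 genes at or above the 40th percentile of mean signal (51.6) were tested on log2(signal + 22.5). The added 22.5 is the 25th percentile of the signals. The test was limma 3.58.1 (R 4.3.3; lmFit, eBayes with trend) with Benjamini-Hochberg adjustment over all genes, and was tested on simulated data. RefSeq tables (GRCm38.p6) held all 38 symbols, but promoter sequences for only 29 of them. Python 3.11.15, numpy 2.4.6, pandas 2.3.3, scipy 1.17.1 and matplotlib 3.10.9 were used besides.

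Groups and mouse numbers come from the sample titles. The members, lists and tests were chosen with earlier results of these data known. Named genes are all 38 members, Cnot3, the up to 3 largest called changes of each pathway list, and Atf4, Asns, Ddit3 and Trib3; other names, markers included, were added after their values were seen. Alternatives are given in the closing section.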

Additional observations from a re-analysis of the deposited data

How the results depend on the processing

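Over the 38 genes and 19 alternatives, 634 of 719 differences kept direction and call, 71 lost their call, 5 gained one and 9 changed sign. Of the 28 calls, 15 held in every alternative that tested the gene. Aars2 is among these 15, although it passed the main filter through the CNOT3KO arrays and the filter at the 60th percentile left it out. No member was called lower in any alternative: the count of members lower stayed at 0. By limma the members called higher numbered 28 with offsets of 1 or 88.5, 26 without the filter, 27 with the filter at the 60th percentile (167), 26 after quantile normalization, 22 with the mean of all probe sets, 22 without trend and 31 with array weights. With median centring the mitochondrial genes called higher fell from 10 to 6. Leaving out single mice gave 18 to 23 members higher, 10 to 15 cytosolic higher, 7 to 9 mitochondrial higher, a difference of cytosolic minus mitochondrial means of -0.14 to -0.064, 5 to 9 pairs without overlap and 3820 to 4636 of all genes. The cytosolic minus mitochondrial difference was -0.18 with an offset of 1, -0.0067 with an offset of 88.5 and -0.016 with the stricter filter. Differences that changed sign with the mean of all probe sets were those of Farsa (-0.37), Hars2 (-0.20), Qars (-0.0661), Farsb (-0.0192) and Ears2 (-0.0127). Farsb also turned with median centring (-0.0307), with cross-hybridising probe sets avoided (-0.0788), and without WT mouse 3 (-0.0407) or CNOT3KO mouse 2 (-0.0234), its range with single mice left out being -0.0407 to 0.214. Trib3 turned with cross-hybridising probe sets avoided (-0.0189). The cause was not tested.

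The titles give mouse numbers 1 to 3 in both groups, but no label ties equal numbers to a litter or a day. Deviations of same-numbered mice correlated at 0.07, 0.11 and 0.04 over the tested genes, and each mouse correlated best with its own number. Deviations were taken from the group mean, so the covariances of a mouse with the other group cancel out and some match is always positive. The correlations therefore do not show whether the mice were paired. With the mouse number as a replicate block, 26 members were higher (16 cytosolic, 9 mitochondrial) of 5092 genes called, against 28 of 5115. Every probe set tested singly was added after seeing the data: of 38 further probe sets of these genes 28 were bright enough to test, 12 were higher, 2 lower (Farsa and Hars2) and 14 not called.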
